A study of Mus musculus with 8 samples.

Results

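The mouse mitochondrial genome encodes its own ribosomal RNAs (rRNAs), its own transfer RNAs (tRNAs) and a small set of respiratory chain proteins. These genes were taken as every listed gene whose symbol starts with mt-, and split by name into rRNA, tRNA and protein genes. They were 37 of the 49490 genes listed in the Trim28 experiment and 37 of the 55291 listed in the IL-2 antibody experiment, namely 2 rRNA genes (mt-Rnr1 and mt-Rnr2), 22 tRNA genes and 13 protein genes. All members lie on the mitochondrial chromosome of GRCm38 (the build also called mm10), where the GENCODE M21 annotation places them between positions 1 and 15422. The cells were mouse CD8+ T cells, the lymphocytes that become killer cells, and came from spleens and lymph nodes. In the first experiment, cells activated in vitro that lacked Trim28, a gene encoding a chromatin co-repressor, were compared with activated controls, labelled WT, that carried floxed Trim28 (Trim28fl/fl). In the second, wild-type cells were kept for 3 days with or without an antibody against the growth factor IL-2. All of them received anti-CD28 and anti-CD3, which engage a costimulatory receptor and the T cell receptor. A stimulation time was available here only for the antibody experiment, so the 2 experiments may differ in it. Each of the 4 groups had 2 polyA RNA libraries. The sources used here name neither the Cre driver nor the antibody's dose, nor do they say whether the 2 libraries of a group came from separate mice or cultures, so every p-value rests on the spread within pairs of libraries, and that spread may be technical.

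Mitochondrial DNA is transcribed from both strands as long precursors, and the tRNAs that lie between the larger genes mark where these precursors are cleaved. The rRNAs form the mitochondrial ribosome, which translates the protein genes into core subunits of respiratory complexes I, III, IV and V, whereas complex II is wholly encoded in the nucleus. Most mitochondrial mRNAs carry short polyA tails, while mature tRNAs end in CCA and have no polyA tail, so that polyA selection favours the protein genes. Activated T cells are known to enlarge their mitochondrial mass and respiration.

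Several members also exist as nuclear copies, stretches of mitochondrial DNA inserted into chromosomes, and reads from such stretches can be placed in either location. The first set of sequences shows why the value of mt-Co2 cannot be read alone. It gives 120 bases inside mt-Co2 (chrM:7030-7149, plus strand) and the same stretch of 2 annotated pseudogenes, Gm28661 (chr1:24615429-24615548, minus strand) and Gm13341 (chr2:22587826-22587945, minus strand), from the GENCODE M21 transcripts on GRCm38. Capitals mark the bases that differ from mt-Co2. The first copy had 0 mismatches and the second had 2, or 98.3% identity.
mt-Co2: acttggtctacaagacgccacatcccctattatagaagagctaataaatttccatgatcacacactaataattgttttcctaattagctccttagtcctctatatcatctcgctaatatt
Gm28661: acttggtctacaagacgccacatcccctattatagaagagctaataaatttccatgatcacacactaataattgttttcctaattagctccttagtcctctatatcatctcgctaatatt
Gm13341: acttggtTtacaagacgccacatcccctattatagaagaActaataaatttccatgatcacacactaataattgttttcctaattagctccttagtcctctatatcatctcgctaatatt
The second set shows 3 of the tRNA genes that the results turn on. mt-Tl1 (chrM:2676-2750, plus strand) lies directly after the rRNA genes and carries leucine. mt-Ts1 (chrM:6870-6938, minus strand) carries serine and follows mt-Co1, and the capitals mark its 3 bases that lie opposite the end of mt-Co1. mt-Tp (chrM:15356-15422, minus strand) carries proline and is the last gene before the control region.
mt-Tl1: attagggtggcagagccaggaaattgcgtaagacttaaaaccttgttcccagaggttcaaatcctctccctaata
mt-Ts1: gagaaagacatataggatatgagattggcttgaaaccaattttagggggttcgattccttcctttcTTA
mt-Tp: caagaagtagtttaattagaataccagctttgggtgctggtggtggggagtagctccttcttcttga

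Values are normalised read counts, that is, reads per gene divided by a size factor per library. Whole reads could be recovered from them, between 13222831 and 13469789 per library in the Trim28 experiment and between 16618750 and 17069569 in the antibody experiment. Groups were compared with limma on log2(value + 1) over all genes that reached 10 in 2 or more libraries, and a change counts as called when its Benjamini-Hochberg adjusted p is below 0.05. The test called 61% of 15415 genes in the knockout (5065 higher, 4344 lower) and 60.3% of 13978 genes with the antibody (4391 higher, 4033 lower), so a call alone sets a member apart from few genes. The 2 tables were normalised separately, so levels set across them are descriptive. Trim28 itself stood at 4262 and 4323 in the controls and at 415 and 458 in the knockout libraries. CD8 T cell markers were present in every library, and their summed normalised counts ranged from 23870.2 to 25345 in the Trim28 experiment and from 30320 to 42161 in the antibody experiment, with the untreated libraries highest. In bulk RNA, fewer cells of a type and less RNA per cell cannot be told apart.

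Members that share sequence with nuclear copies had different levels in the 2 tables. A block of 7 annotated pseudogenes on chromosome 1 (chr1:24611535-24616197) matches stretches of the mitochondrial genome from within mt-Co1 to within mt-Nd4. Of all 100-base windows, 99.5% of mt-Co2, 99.5% of mt-Atp6, 99.8% of mt-Co3, 97.6% of mt-Nd3 and 98.5% of mt-Nd4l were found exactly in an annotated nuclear copy. The share was 60.8% in mt-Nd4, 30.8% in mt-Co1 and 3.19% in mt-Nd2, and 0% in mt-Rnr1, mt-Rnr2, mt-Nd1, mt-Atp8, mt-Nd5, mt-Nd6 and mt-Cytb.

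In the Trim28 experiment each of the 5 widely shared genes had almost the same value as its copy. mt-Co2 stood at 13085 and 12129 in the controls, beside 13036 and 12081 for Gm28661. The ratio of the mitochondrial gene to its copy in the controls was 1.00 for mt-Co2, 0.988 for mt-Atp6, 0.999 for mt-Co3, 1.02 for mt-Nd3 and 0.997 for mt-Nd4l. In the antibody experiment both members of each pair were low: mt-Co2 stood at 186 and 197 in untreated cells, and Gm28661 at 105 and 111. As reads per kilobase scaled to library depth (RPKM), the 5 widely shared genes had a median of 951 in the controls and of 11.2 in untreated cells. The 7 protein genes with at least 1000 normalised reads in all 8 libraries had medians of 998 and 2583 on that same scale. The widely shared genes were therefore low in the antibody table only, and how the authors' counter treated reads with several matches is not given in the sources used here.

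**Figure D1:**
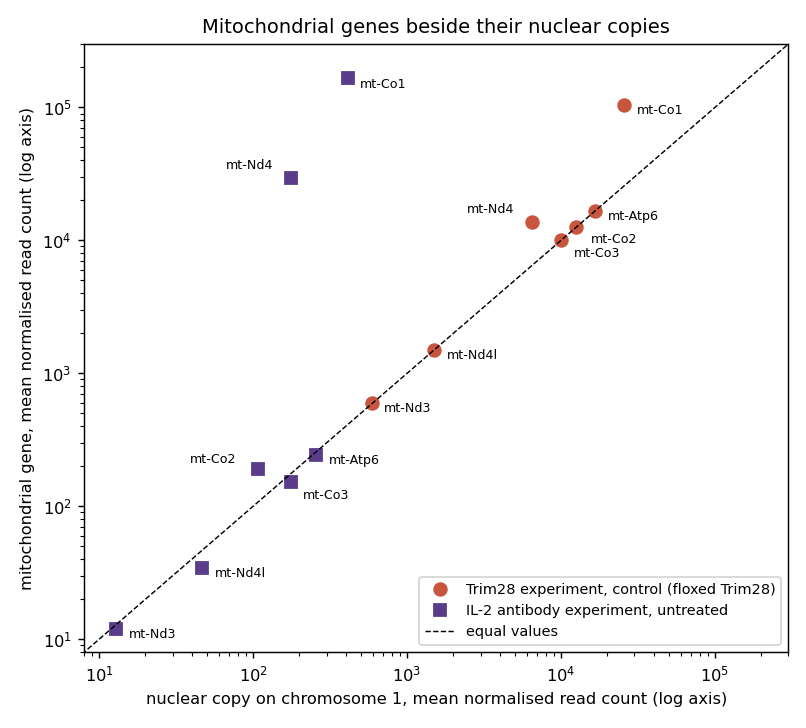
Mean normalised read count of each mitochondrial gene (vertical, log axis) against its annotated copy on chromosome 1 (horizontal, log axis), in the reference group of each experiment. The 5 widely shared genes lie on or near the line of equal values in both experiments, high in the controls and low in untreated cells, while mt-Co1 and mt-Nd4, which are shared in part, lie above the line.

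mt-Ts1 and mt-Atp8, which lie where gaps separate the annotated copies, were also high in the first table and low in the second. The stretch of chromosome 1 between Gm29216 and Gm28661 is 140 bases long, as is the mitochondrial stretch between their counterparts, which holds mt-Ts1 and mt-Td. The stretch between Gm28661 and Gm10925 is 233 bases long in both genomes and holds mt-Tk and most of mt-Atp8. mt-Ts1 stood at 625 and 544 in the controls and at 3.12 and 2.06 in untreated cells, and mt-Atp8, a small subunit of complex V, at 2619.9 and 2719.8 and at 31.2 and 24.7. mt-Tk and mt-Td were low in the controls too, at no more than 7.1. No genome sequence of chromosome 1 was used here, so the identity of these stretches was not tested. For 9 members (mt-Rnr1, mt-Rnr2, mt-Nd1, mt-Nd2, mt-Co1, mt-Nd4, mt-Nd5, mt-Nd6 and mt-Cytb) every library had at least 1000 normalised reads, and these carry the comparison between the experiments.

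In the knockout, 30 of the 37 members passed the filter on low values: 5 were called higher, 10 lower and 15 neither. Over all tested genes 32.9% were called higher and 28.2% lower, so the members' 5 of 30 lies below and their 10 of 30 near the background. The median log2 fold change was -0.26 over the tested members and 0.03 over all tested genes. With the antibody, 21 members passed, of which 7 were called higher, 7 lower and 7 neither, beside 31.4% and 28.9% of all tested genes. Their median was -0.06, against 0.02 over all genes. The libraries of the groups did not overlap for 23 of the 30 tested members in the knockout and for 17 of 21 with the antibody, beside 82.3% and 79.3% of all tested genes. The counts depend on single libraries, for the members as for all tested genes. Fewer of both were called without control library 2, without either knockout library and without either untreated library. Each such fit leaves 1 library in a group, so its counts are not read as a result about the members. The plot of normalised counts by library shows the rRNA and protein genes in both experiments.

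**Figure D2:**
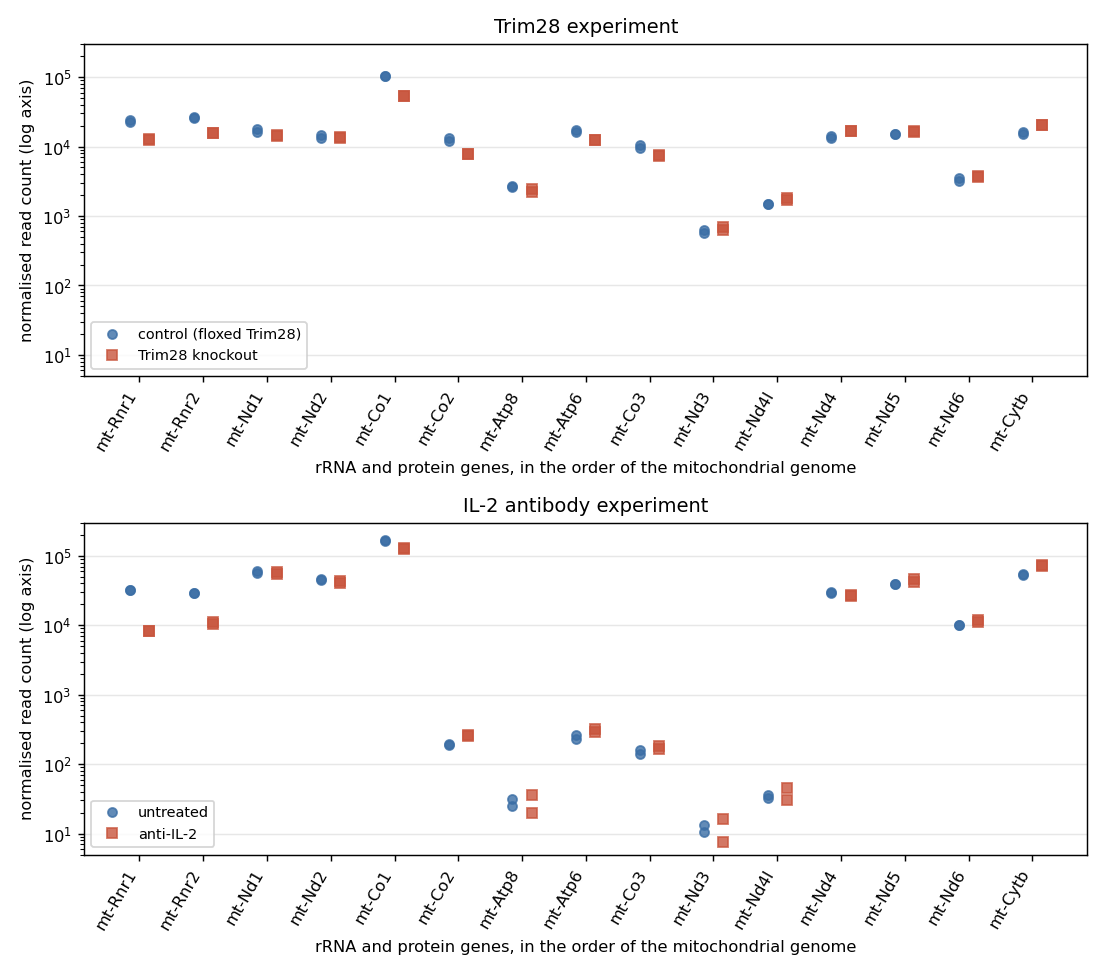
Normalised read count (log axis) of the 2 rRNA genes and 13 protein genes in each library, in genome order, with circles for the reference group and squares for the knockout or antibody group. mt-Co1 is the highest in both experiments, the rRNA genes are separated between groups in both, and the run from mt-Co2 to mt-Nd4l lies far below the other genes in the antibody experiment only.

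Both rRNA genes fell in both experiments, and fell further with the antibody. mt-Rnr1, the RNA of the small mitochondrial ribosomal subunit, stood at 24203 and 22871 in the controls and at 12551 and 12855 in the knockout (log2 fold change -0.89, SE 0.033, adjusted p = 1.68e-05), a 1.85-fold lower level. mt-Rnr2, the RNA of the large subunit, stood at 26619 and 25398 and at 15573 and 15863 (log2 fold change -0.73, SE 0.029, adjusted p = 2.12e-05), 1.65-fold lower. For both genes the control libraries lay far above the knockout libraries, with no overlap. With the antibody, mt-Rnr1 went from 32706 and 32148 to 8221 and 8148 (log2 fold change -1.99, SE 0.048, adjusted p = 5.87e-17), 3.96-fold lower. mt-Rnr2 went from 29537 and 28850.1 to 10986 and 10332 (log2 fold change -1.45, SE 0.05, adjusted p = 9.16e-15), 2.74-fold lower. Again the groups did not overlap, and the 2 treated libraries lay close together. The change was smaller in the knockout than with the antibody by 1.10 on the log2 scale for mt-Rnr1 (SE 0.053, adjusted p = 8.33e-09) and by 0.73 for mt-Rnr2 (SE 0.057, adjusted p = 6.46e-07), in a fit of all 8 libraries that called 41.7% of 12428 genes. Both genes stayed lower under every scaling run, and scaled to mitochondrial reads they fell by 0.42 and 0.26 in the knockout and by 1.77 and 1.24 with the antibody.

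The ratio of rRNA to mRNA reads was lower in the treated libraries of both experiments. Reads of both rRNA genes per read of the 7 protein genes measured at 1000 or more numbered 0.273 and 0.267 in the controls and 0.202 and 0.208 in the knockout, a 1.32-fold lower ratio. In untreated cells the ratio was 0.153 in both libraries, and with the antibody it was 0.052 and 0.0469, or 3.09-fold lower. No library of a treated group reached the level of its reference group. The 7 protein genes include mt-Co1, which had the most reads of them and itself fell, 1.95-fold in the knockout and 1.29-fold with the antibody. The sizes of both changes in the ratio therefore depend on mt-Co1. Reads of mt-Rnr2 per read of mt-Nd1, which leave mt-Co1 out, were 1.41-fold lower in the knockout and 2.63-fold lower with the antibody. The 2 rRNAs did not fall by the same factor: reads of mt-Rnr1 per read of mt-Rnr2 went from 0.909 and 0.900 to 0.806 and 0.810 in the knockout and from 1.11 and 1.11 to 0.748 and 0.789 with the antibody. mt-Rnr1 is thus the one that was lower relative to its neighbour in the treated libraries of both experiments.

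The capture of RNA without long polyA tails can differ between libraries, and a list of non-polyadenylated and nuclear RNAs was measured beside the rRNAs. In the knockout 6 of 14 tested members of this list were called lower and 1 higher (median -0.11), beside 28.2% and 32.9% of all tested genes. Among the lower ones was the snRNA regulator Rn7sk, at 162 and 149 against 91.6 and 84.3 (log2 fold change -0.82, adjusted p = 6.95e-04). The linker histone gene Hist1h1c was the one called higher (log2 fold change 0.78, adjusted p = 5.04e-04). With the antibody, 2 of 4 tested members were lower and 1 higher (median -0.39), beside 28.9% and 31.4% of all tested genes. Neat1, a nuclear RNA that builds paraspeckles, went from 649 and 676 to 389 and 387 (log2 fold change -0.77, adjusted p = 5.25e-08), and Malat1, a nuclear RNA of speckles, from 4069 and 3941 to 3448 and 3185 (log2 fold change -0.27, adjusted p = 2.20e-04). The part of RNA capture in the rRNA result was not tested.

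Of the 7 complex I genes, mt-Nd1 fell in the knockout, mt-Nd4 rose, and mt-Nd4l, mt-Nd5 and mt-Nd6 were called higher by small steps that did not hold under every setting. mt-Nd1 stood at 17621 and 16392 in the controls and at 14529 and 14345 in the knockout (log2 fold change -0.24, SE 0.037, adjusted p = 0.00258), with the knockout libraries below both controls, though scaled to mitochondrial reads it was higher (0.23). mt-Nd2 did not pass the test, at 14456 and 13365 against 13707 and 13358 (log2 fold change -0.04, SE 0.041, adjusted p = 0.439). mt-Nd4 was higher, at 13974 and 13363 against 16786 and 16719.9 (log2 fold change 0.29, SE 0.028, adjusted p = 3.53e-04), and its groups did not overlap. mt-Nd5 was slightly higher, at 15269 and 15050.5 against 16545 and 16266 (log2 fold change 0.11, SE 0.023, adjusted p = 0.00632). mt-Nd6, the only protein gene on the minus strand, stood at 3483 and 3229 against 3646 and 3711 (log2 fold change 0.13, SE 0.042, adjusted p = 0.0344). Of the genes widely shared with nuclear copies, mt-Nd4l was higher, at 1498 and 1501 against 1822 and 1716 (log2 fold change 0.24, SE 0.04, adjusted p = 0.00325), while mt-Nd3, at 634 and 562 against 623 and 698, overlapped between groups (log2 fold change 0.14, adjusted p = 0.168). mt-Nd4l was not called in the fit of all 8 libraries (0.15). Some calls rest on single libraries: mt-Nd1 lost its call without knockout library 1 (adjusted p = 0.0812) and without knockout library 2 (0.0905). mt-Nd5 did so without control library 2 (0.0707) and without either knockout library (0.0718 and 0.0524), and also under upper-quartile scaling (0.243). mt-Nd6 did so without control library 2 (0.14), without either knockout library (0.189 and 0.245) in edgeR (0.0833) and DESeq2 (0.221), under TMM (0.0511) and upper-quartile scaling (0.295) and without a filter on low values (0.154). mt-Nd2 was called lower under upper-quartile scaling (log2 fold change -0.12, adjusted p = 0.0475).

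With the antibody the complex I genes changed little. mt-Nd1 overlapped between groups, at 60688 and 57046 untreated and 54229 and 59033 treated (log2 fold change -0.06, SE 0.057, adjusted p = 0.408). mt-Nd2 was lower, at 45592 and 46685 against 40140.5 and 43027 (log2 fold change -0.15, SE 0.053, adjusted p = 0.0196), and so was mt-Nd4, at 29757 and 29403 against 26282 and 27702 (log2 fold change -0.13, SE 0.05, adjusted p = 0.0292), though scaled to mitochondrial reads their values were 0.06 and 0.08, neither called. mt-Nd5 was higher, at 39460.3 and 39742 against 42333 and 45862 (log2 fold change 0.15, SE 0.053, adjusted p = 0.0182), as was mt-Nd6, at 10064 and 10136 against 11049.7 and 12069 (log2 fold change 0.19, SE 0.052, adjusted p = 0.00332). Their groups did not overlap, but the steps were small. Each of these 4 calls was lost without untreated library 1 (adjusted p = 0.301 for mt-Nd2, 0.4 for mt-Nd4, 0.363 for mt-Nd5 and 0.145 for mt-Nd6) and without untreated library 2 (0.413, 0.337, 0.33 and 0.125). mt-Nd2 and mt-Nd4 were also not called when scaled to reads outside the mitochondrial genes (0.192 and 0.282) or to all reads (0.209 and 0.308), nor mt-Nd5 under upper-quartile scaling (0.104). Without a filter on low values none of the 4 was called (0.0999, 0.0828, 0.111 and 0.0808). Without treated library 2, mt-Nd1 was called lower (log2 fold change -0.12, adjusted p = 2.22e-04). mt-Nd3 and mt-Nd4l had few reads, at 10.4 and 13.4 against 7.64 and 16.3 and at 32.2 and 36 against 44.9 and 30.7, and neither passed. mt-Nd6 is read from the opposite strand across the end of mt-Nd5, where they overlap by 14 bases. Reads of mt-Nd6 per mt-Nd5 read were close to constant. Their mean was 0.221 in the controls, 0.224 in the knockout, 0.255 in untreated cells and 0.262 with the antibody. Whether reads were counted by strand was not tested.

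Among the complex III and IV genes, mt-Cytb and mt-Co1 moved in opposite directions in both experiments. mt-Cytb, the cytochrome b of complex III, stood at 16085 and 15403 in the controls and at 20370.4 and 20211 in the knockout (log2 fold change 0.37, SE 0.027, adjusted p = 1.45e-04), 1.29-fold higher. With the antibody it went from 54760.5 and 52535 to 70316 and 74725 (log2 fold change 0.43, SE 0.054, adjusted p = 1.21e-06), 1.35-fold higher. It had the largest increase of the 9 members measured at 1000 or more, in both experiments. mt-Co1, the catalytic core of complex IV and the most abundant member, stood at 105102 and 104014 in the controls and at 53408 and 53777 in the knockout (log2 fold change -0.96, SE 0.018, adjusted p = 3.42e-06), 1.95-fold lower. With the antibody it went from 166690 and 163386 to 125100 and 131328 (log2 fold change -0.36, SE 0.057, adjusted p = 1.85e-05), 1.29-fold lower. Its libraries did not overlap between groups in either experiment. The antibody call of mt-Co1 was lost without untreated library 1 (adjusted p = 0.107) or without untreated library 2 (0.0808). The difference between the 2 effects was -0.60 for mt-Co1 (adjusted p = 2.39e-06) and -0.07 for mt-Cytb (adjusted p = 0.378). Only the fall of mt-Co1 was thus called different, and larger in the knockout. Of the 100-base windows of mt-Co1, 30.8% are shared with nuclear copies. Its copy Gm29216 stood at a mean of 25747.5 in the controls and 410.7 in untreated cells. The part of shared reads in this difference was not tested. Within a library, reads of mt-Cytb per read of mt-Co1 went from 0.153 and 0.148 to 0.381 and 0.376 in the knockout, 2.51-fold higher, and from 0.329 and 0.322 to 0.562 and 0.569 with the antibody, 1.74-fold higher.

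The other complex IV and V genes were called lower in the knockout but not with the antibody, and all but mt-Atp8 are widely shared with the nuclear copies. In the knockout mt-Co2, which takes up electrons from cytochrome c, stood at 13085 and 12129 against 7944 and 7934 (log2 fold change -0.67, SE 0.039, adjusted p = 6.05e-05). mt-Co3, another core subunit of complex IV, stood at 10460.3 and 9561 against 7368 and 7563 (log2 fold change -0.42, SE 0.045, adjusted p = 5.57e-04). mt-Atp6, part of the proton channel of complex V, stood at 17055 and 15973 against 12418 and 12638 (log2 fold change -0.40, SE 0.035, adjusted p = 2.71e-04), and mt-Atp8 at 2619.9 and 2719.8 against 2419.5 and 2192 (log2 fold change -0.21, SE 0.053, adjusted p = 0.0147). All 4 were called lower, with no overlap between groups, but scaled to mitochondrial reads only mt-Co2 stayed lower (-0.20), with values of 0.05 for mt-Co3, 0.07 for mt-Atp6 and 0.26 for mt-Atp8. mt-Co3 lost its call without knockout library 1 (adjusted p = 0.0532), and mt-Atp8 without control library 1 (0.0697), control library 2 (0.117) or knockout library 2 (0.0899), without a filter on low values (0.113) and in the fit of all 8 libraries (0.365). The copies of mt-Co2, mt-Co3 and mt-Atp6 had log2 fold changes of -0.67 (Gm28661), -0.42 (Gm28437) and -0.39 (Gm10925). They had almost the same counts as the mitochondrial genes over shared sequence, so these values cannot be taken as separate. With the antibody mt-Co2 was higher, at 186 and 197 against 262 and 255 (log2 fold change 0.43, SE 0.1, adjusted p = 0.00147), as was mt-Atp6, at 228 and 259.5 against 289 and 318 (log2 fold change 0.32, SE 0.1, adjusted p = 0.0117). mt-Atp6 was not called without untreated library 1 (0.177) or treated library 2 (0.0682), in DESeq2 (0.122), or without a filter (0.105). mt-Co3 and mt-Atp8 did not pass, at 141 and 161 against 164 and 181 and at 31.2 and 24.7 against 20 and 36.4, though the fit of all 8 libraries called mt-Co3 higher (adjusted p = 0.0266). The effects differed between the experiments for mt-Co2 (-1.10, adjusted p = 1.01e-07), mt-Atp6 (-0.72, adjusted p = 4.65e-05) and mt-Co3 (-0.62, adjusted p = 3.02e-04), but no difference was called for mt-Atp8 (-0.18, adjusted p = 0.641), and the part of the low counts of these genes in the antibody table was not tested.

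The tRNA genes had few reads, and in the knockout most of those tested were not called. In the Trim28 experiment 15 of 22 passed the filter, 2 were called lower and 13 were not called. Of all tested genes, 28.2% were called lower and 32.9% higher. The 7 tRNA genes that did not pass lay between 0.985 and 7.1 normalised reads. mt-Ts1 stood at 625 and 544 against 344 and 330.4 (log2 fold change -0.79, SE 0.076, adjusted p = 3.60e-04), and its groups did not overlap. This fall was close to that of its neighbour mt-Co1, which lies on the opposite strand. Whether reads were counted by strand was not tested, so the 2 values may not be separate. mt-Tg, the glycine tRNA, stood at 11.2 and 14.2 against 6.89 and 5.88 (log2 fold change -0.88, SE 0.27, adjusted p = 0.0328). This call was lost in edgeR (adjusted p = 0.0552), in DESeq2 (0.438), with a replicate block (0.051), without a filter (0.0516), scaled to mitochondrial reads (0.207), without control library 2 (0.0876) and without either knockout library (0.0669 and 0.0919). The tested tRNAs that were not called had log2 fold changes from -0.73 in mt-Tl2 to 0.37 in mt-Te. These were mt-Tl1 at 99.4 and 106 against 112 and 90.2, mt-Te at 104 and 78.1 against 122 and 113, mt-Tc at 65.9 and 64.9 against 56.1 and 54.9, mt-Tm at 48.7 and 40.5 against 36.4 and 33.3, mt-Ty at 36.5 and 39.5 against 39.4 and 38.2, mt-Tn at 32.5 and 26.4 against 29.5 and 32.3 and mt-Tp at 29.4 and 27.4 against 24.6 and 21.6. The remaining 6 (mt-Ti, mt-Tq, mt-Tw, mt-Ta, mt-Tl2 and mt-Tt) lay between 5.88 and 20.3 normalised reads. mt-Te was called higher without control library 1 (log2 fold change 0.58, adjusted p = 0.028), with a stricter filter (0.032) and with the block (0.0329), and mt-Tl2 lower without knockout library 1 (-0.99, adjusted p = 0.0352). mt-Tc was called lower under upper-quartile scaling (0.0466) and without a filter (0.0429), and mt-Tw without a filter (0.049).

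With the antibody only 6 tRNA genes passed the filter, 6 were at 0 in all 4 libraries, and the highest value among the 16 untested was 9.35. Of the 6 tested, 2 were called higher and 2 lower, beside 31.4% and 28.9% of all tested genes. mt-Tp fell from 281 and 247 to 129 and 105 (log2 fold change -1.18, SE 0.13, adjusted p = 1.93e-07), 2.26-fold lower, and its call held with each library left out in turn. In the knockout the same gene had not been called, and the effects differed by 0.89 (adjusted p = 0.00819). mt-Tp lies on the minus strand and mt-Cytb, which rose, on the plus strand, with mt-Tt between them, but counting by strand was not tested. mt-Tl1 was higher, at 105 and 91.7 against 136 and 127 (log2 fold change 0.41, SE 0.14, adjusted p = 0.0171), between rRNA genes that fell and mt-Nd1, which was not called. mt-Te, the glutamate tRNA, stood at 7.27 and 5.15 against 15.3 and 16.3 (log2 fold change 1.23, SE 0.4, adjusted p = 0.0132), and mt-Ta, the alanine tRNA, at 20.8 and 21.6 against 14.3 and 6.71 (log2 fold change -1.03, SE 0.38, adjusted p = 0.0239). mt-Tc and mt-Tm did not pass, at 107 and 123 against 90.7 and 94.9 and at 16.6 and 10.3 against 6.68 and 5.75. The call of mt-Tl1 was lost without untreated library 2 (adjusted p = 0.151) or treated library 1 (0.0812), that of mt-Te without untreated library 2 (0.0606), and that of mt-Ta without untreated library 1 (0.0873), untreated library 2 (0.104) or treated library 2 (0.22). mt-Tm was called lower without untreated library 2 (log2 fold change -1.29, adjusted p = 0.0404), under upper-quartile scaling (0.0478), in edgeR (0.0407) and in the fit of all 8 libraries (0.0114). mt-Tl1, mt-Te and mt-Ta were called neither in DESeq2 (0.173, 0.161 and 0.195) nor without a filter (0.0722, 0.0504 and 0.177), and mt-Ta not when scaled to mitochondrial reads (0.0856).

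As a share of all reads, the members made up 2.11% and 2.03% of the control libraries and 1.52% of each knockout library. In the antibody experiment the share was 2.72% and 2.69% in untreated cells and 2.40% and 2.53% in treated cells. With 2 libraries a group, an exact permutation test cannot pass here, since its smallest two-sided p is 1 in 3, so the shares are given without one. The rRNA genes took 0.378% and 0.360% of control reads and 0.213% and 0.217% of knockout reads, then 0.360% and 0.356% of untreated and 0.118% and 0.113% of treated reads. The protein genes took 1.72% and 1.67% of control and 1.30% and 1.30% of knockout reads. In the antibody experiment they took 2.36% and 2.33% against 2.28% and 2.41%, so these groups overlapped, with a mean share of 2.35% ± 0.0144 in untreated and 2.34% ± 0.0953 in treated cells (SD, n = 2). The drop in the antibody experiment thus lay in the rRNA genes, while in the knockout the share of the protein genes was lower too. Most of that fall in the knockout lay in mt-Co1, whose mean normalised count went from 104558 to 53592. The sum of the 13 protein genes went from 227302 to 171356. Of these genes 5 were called higher and 6 lower, beside 32.9% and 28.2% of all tested genes. When libraries were scaled to their mitochondrial reads, which gives each gene relative to mitochondrial RNA, the median log2 fold change of all genes moved by 0.46 in the knockout and by 0.21 with the antibody. The all-gene calls then became 10597 higher and 1369 lower in the knockout and 6381 and 2452 with the antibody. On that scale, 13 members were called higher in the knockout, among them mt-Nd1, mt-Nd2 (0.43) and mt-Atp8, and 5 lower, among them both rRNA genes and mt-Co1.

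**Figure D3:**
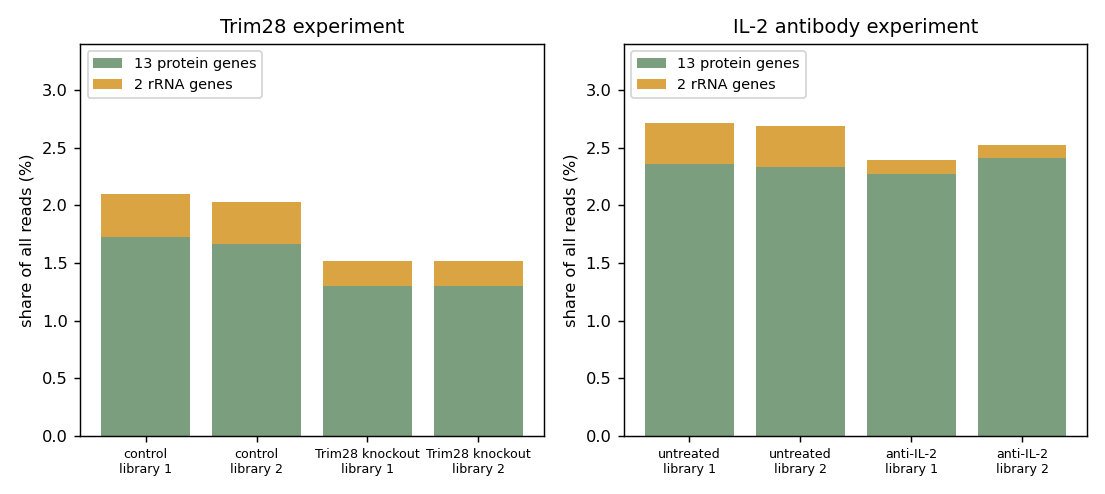
Share of all recovered reads (%) on the 13 protein genes and the 2 rRNA genes, stacked, in each library of both experiments. The rRNA part shrinks from 0.378% and 0.360% to 0.213% and 0.217% in the knockout and from 0.360% and 0.356% to 0.118% and 0.113% with the antibody, while the protein part is lower in both knockout libraries and overlaps between the groups of the antibody experiment.

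Among the rRNA and protein genes, position in the genome and log2 fold change ranked in part alike. Across the 9 members at 1000 or more, Spearman's rho between genome start and log2 fold change was 0.783 in the knockout and 0.883 with the antibody. Across all 15 rRNA and protein genes it was 0.796 and 0.632, and across the 7 protein genes at 1000 or more it was 0.786 and 0.75. The points share libraries and transcripts, so these values are a description. The order was not strict: mt-Co1 was the lowest of the 9 in the knockout, below both rRNA genes, and lay below mt-Nd1 and mt-Nd2 in both experiments, mt-Nd5 and mt-Nd6 lay below mt-Nd4 in the knockout, and mt-Nd2 and mt-Nd4 lay below mt-Nd1 with the antibody. The tRNA genes are not in these values, and with the antibody the last gene, mt-Tp, stood at -1.18 and mt-Tl1, near the start, at 0.41. Between the experiments, which have separate control libraries, Pearson's r of the log2 fold changes over the same 9 members was 0.787 and Spearman's rho 0.817, again as a description. Of these 9, the sign differed between the experiments only for mt-Nd4. mt-Nd4 rose in the knockout and fell with the antibody, and the difference of 0.43 was called (adjusted p = 5.01e-05), beside 60.8% of its windows shared with nuclear copies. Over all 21 members tested in both experiments, 4 had a higher log2 fold change in the knockout than with the antibody (mt-Rnr1, mt-Rnr2, mt-Nd4 and mt-Tp), 4 a lower one (mt-Co1, mt-Co2, mt-Atp6 and mt-Co3) and 13 were not called, against 24.7% and 17% of all genes. Without the 5 widely shared genes, mt-Co1, with 30.8% of its windows shared, was the only one left with a lower value in the knockout. Without treated library 1, more members had a lower one, though fewer of all genes did, in a fit that leaves 1 library in that group.

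**Figure D4:**
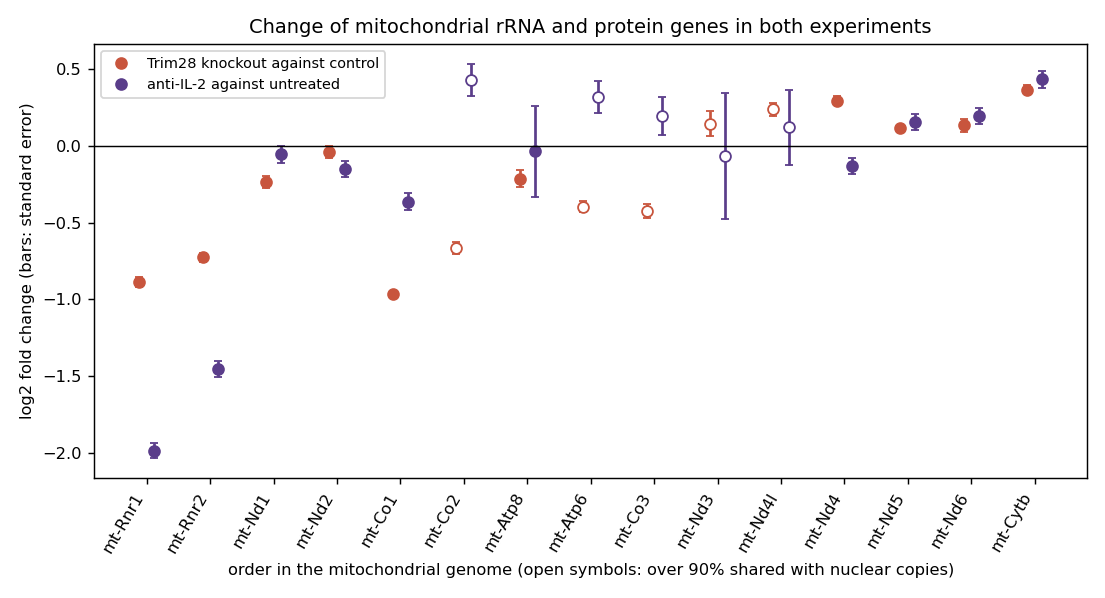
Log2 fold change with standard error of the 2 rRNA and 13 protein genes in genome order, for the knockout and for the antibody, with open symbols for genes widely shared with nuclear copies. mt-Rnr1 on the left stands at -0.89 and -1.99 and mt-Cytb on the right at 0.37 and 0.43, with mt-Co1 the lowest of all in the knockout. Among the open symbols, the effects differed between the experiments for mt-Co2, mt-Atp6 and mt-Co3, while no difference was called for mt-Nd3 and mt-Nd4l.

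The nuclear genes that copy, transcribe and process mitochondrial DNA and RNA were read from lists, each with its 2 genes of smallest adjusted p in each experiment. The shares to set beside their counts are those of all tested genes, 32.9% higher and 28.2% lower in the knockout and 31.4% and 28.9% with the antibody. Of the mitochondrial transcription genes, 6 of 9 were called higher and 2 lower (median 0.32) in the knockout, and 2 of 9 were called higher and 1 lower (median -0.04) with the antibody, where the higher share lies below that of all genes. Tefm, an elongation factor of the mitochondrial polymerase, stood at 69 and 67.9 against 133 and 128 in the Trim28 experiment (log2 fold change 0.92, adjusted p = 3.47e-04), and Mrpl12, a ribosomal protein that also binds the polymerase, at 1039 and 989 against 1239 and 1297 (log2 fold change 0.32, adjusted p = 0.00142). With the antibody Tfam, which packages mitochondrial DNA and starts transcription, stood at 1010.2 and 1025 against 1342 and 1243 (log2 fold change 0.34, adjusted p = 9.99e-05). Mterf3, a regulator of mitochondrial transcription, stood at 935 and 838 against 692 and 642 (log2 fold change -0.41, adjusted p = 8.57e-05), and was not called there when scaled to mitochondrial reads (0.0652). Of the genes for mitochondrial DNA replication and maintenance, 10 of 13 were called higher and 2 lower (median 0.52) in the knockout and 11 of 13 were called higher and 1 lower (median 0.35) with the antibody. In the knockout Top1mt, the mitochondrial topoisomerase, rose (log2 fold change 1.27, adjusted p = 5.33e-05), as did Mgme1, an exonuclease of mitochondrial DNA (log2 fold change 0.92, adjusted p = 1.41e-04). With the antibody Dna2, a nuclease and helicase, went from 104 and 112 to 374 and 339 (log2 fold change 1.71, adjusted p = 1.45e-10), and Top1mt rose as well (log2 fold change 1.13, adjusted p = 2.09e-08).

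Among the genes of tRNA cleavage and maturation, 2 of 6 were called higher and 0 lower (median 0.02) in the knockout and 2 of 6 were called higher and 0 lower (median -0.02) with the antibody, higher shares close to those of all genes (32.9% and 31.4%). Prorp, the catalytic part of the enzyme that cuts 5' ends of tRNAs, is listed in the Trim28 table as 1110008L16Rik and rose in the knockout (log2 fold change 0.76, adjusted p = 3.67e-04) and with the antibody (log2 fold change 0.57, adjusted p = 2.10e-05). Elac2, which cuts the 3' ends, rose in the knockout (log2 fold change 0.34, adjusted p = 4.89e-04). Trnt1, which adds CCA, rose with the antibody (log2 fold change 0.23, adjusted p = 0.00622), a call lost without untreated library 2 (0.233) and without a filter (0.186). For polyadenylation, stability and decay, 12 of 16 were called higher and 0 lower (median 0.31) in the knockout and 10 of 16 were called higher and 1 lower (median 0.27) with the antibody. In the knockout the first 2 genes were Rexo2, an exonuclease of short RNAs (log2 fold change 0.77, adjusted p = 5.93e-05), and Supv3l1, the helicase of the mitochondrial RNA degrading complex (log2 fold change 0.64, adjusted p = 1.10e-04). With the antibody they were Lrpprc, which stabilises mitochondrial mRNAs (log2 fold change 0.47, adjusted p = 4.50e-07), and Fastkd1, an RNA-binding protein (log2 fold change 0.65, adjusted p = 6.43e-07). For rRNA modification and ribosome assembly, 8 of 11 were called higher and 0 lower (median 0.35) in the knockout and 4 of 11 were called higher and 2 lower (median 0.15) with the antibody. In the knockout these were led by Mrm1, a methyltransferase of the large rRNA (log2 fold change 0.54, adjusted p = 0.00111), and Ddx28, a helicase of ribosome assembly (log2 fold change 0.60, adjusted p = 0.00117), the first not called in DESeq2 (0.0525). With the antibody they were led by Tfb1m, which methylates the small rRNA (log2 fold change 0.83, adjusted p = 7.20e-06), and Ybey, an endoribonuclease (log2 fold change 0.85, adjusted p = 2.05e-04). For translation factors, 9 of 11 were called higher and 0 lower (median 0.37) in the knockout and 7 of 11 were called higher and 1 lower (median 0.33) with the antibody. The elongation factor Tufm (log2 fold change 0.56, adjusted p = 1.07e-04) and Gfm2, which recycles ribosomes (log2 fold change 0.47, adjusted p = 4.20e-04), rose in the knockout, and the elongation factor Tsfm (log2 fold change 0.82, adjusted p = 3.00e-08) and Taco1, an activator of mt-Co1 translation (log2 fold change 0.66, adjusted p = 1.25e-04), with the antibody.

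The nuclear partners of the mitochondrially encoded subunits were described by complex. Complex I subunits had 10 of 36 higher and 7 lower (median 0.13) in the knockout, both shares below those of all genes (32.9% and 28.2%), and 13 of 36 higher and 5 lower (median 0.11) with the antibody, beside 31.4% and 28.9%. Ndufv3 fell in the knockout (log2 fold change -0.46, adjusted p = 3.65e-04) and with the antibody (log2 fold change -1.03, adjusted p = 7.55e-10), though scaled to mitochondrial reads it was not called in the knockout (log2 fold change 0.015), while Ndufv1, which binds NADH, rose in the knockout (log2 fold change 0.46, adjusted p = 6.78e-04) and Ndufa6 fell with the antibody (log2 fold change -0.71, adjusted p = 2.54e-08). Complex II, which has no mitochondrially encoded member, had 3 of 4 higher and 0 lower (median 0.24) and 4 of 4 higher and 0 lower (median 0.30). Its flavoprotein Sdha rose in the knockout (log2 fold change 0.66, adjusted p = 3.61e-05) and with the antibody (log2 fold change 0.60, adjusted p = 6.30e-09), the membrane anchor Sdhc in the knockout (log2 fold change 0.27, adjusted p = 0.00223) and the membrane anchor Sdhd with the antibody (log2 fold change 0.43, adjusted p = 1.02e-05). The Sdhc call was lost without knockout library 1 (0.0505) or 2 (0.0503) and in DESeq2 (0.0505). Complex III had 6 of 9 higher and 1 lower (median 0.23) and 5 of 9 higher and 1 lower (median 0.19). Cytochrome c1, encoded by Cyc1 (log2 fold change 0.60, adjusted p = 9.79e-05), and the core subunit Uqcrc1 (log2 fold change 0.43, adjusted p = 2.08e-04) rose in the knockout, and with the antibody Uqcr10 rose (log2 fold change 0.79, adjusted p = 1.77e-08) and the hinge subunit Uqcrh fell (log2 fold change -0.56, adjusted p = 1.22e-07). Complex IV had 5 of 11 higher and 2 lower (median 0.04) and 2 of 11 higher and 2 lower (median -0.03), the second with both shares below those of all genes. Ndufa4, an associated subunit, rose in the knockout (log2 fold change 0.52, adjusted p = 2.03e-04) and with the antibody (log2 fold change 0.88, adjusted p = 2.74e-10), Cox5a rose in the knockout (log2 fold change 0.28, adjusted p = 0.00185) and Cox4i1 fell with the antibody (log2 fold change -0.24, adjusted p = 0.00105). The Cox5a call was lost without knockout library 1 (0.0547), and that of Cox4i1 without untreated library 1 (0.0811), without a filter (0.0662) and scaled to mitochondrial reads (0.707). Complex V had 5 of 15 higher and 1 lower (median 0.03) in the knockout, a higher share close to that of all genes, and 7 of 14 higher and 2 lower (median 0.10) with the antibody. Its subunit genes Atp5a1 (log2 fold change 0.42, adjusted p = 4.32e-05) and Atp5b (log2 fold change 0.24, adjusted p = 3.26e-04) rose in the knockout. Atp5a1 (log2 fold change 0.43, adjusted p = 3.84e-07) and the ring subunit gene Atp5g3 (log2 fold change 0.40, adjusted p = 1.56e-06) rose with the antibody.

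Among nuclear regulators of mitochondrial biogenesis, 4 of 9 were called higher and 0 lower (median 0.03) in the knockout and 4 of 9 were called higher and 2 lower (median 0.01) with the antibody, beside 32.9% and 28.2%, and 31.4% and 28.9%, of all genes. Tfeb, a regulator of lysosomal and mitochondrial genes, stood at 75.1 and 79.1 against 246 and 252 in the Trim28 experiment (log2 fold change 1.68, adjusted p = 2.79e-05), and Nrf1, an activator of nuclear respiratory genes, at 512 and 526 against 799.6 and 799.9 (log2 fold change 0.62, adjusted p = 9.67e-05). Myc, a driver of growth, fell from 35198 and 35265 to 19498 and 21057 with the antibody (log2 fold change -0.80, adjusted p = 1.24e-10), while Ppargc1b, a co-activator of mitochondrial genes, rose from 60.3 and 51.5 to 219 and 241 (log2 fold change 2.02, adjusted p = 4.71e-10). Among mitochondrial chaperones and stress genes, 4 of 7 were called higher and 2 lower (median 0.27) in the knockout and 5 of 7 were called higher and 1 lower (median 0.23) with the antibody. The proteases Clpp (log2 fold change 1.09, adjusted p = 3.10e-05) and Lonp1 (log2 fold change 0.54, adjusted p = 4.66e-05) rose in the knockout, and the chaperonin Hspd1 (log2 fold change 0.71, adjusted p = 1.35e-09) and Clpp (log2 fold change 0.81, adjusted p = 7.98e-09) with the antibody.

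**Figure D5:**
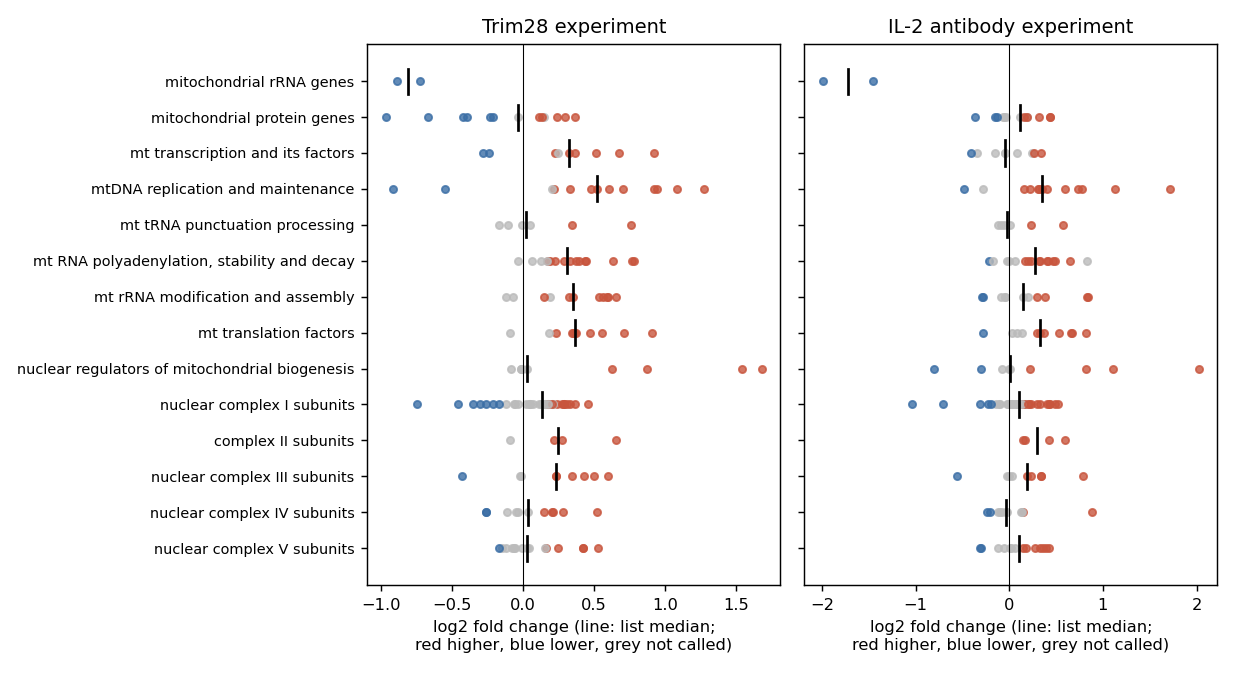
Log2 fold change of each tested gene (points) and the list median (lines) for the mitochondrial rRNA and protein genes and for 12 lists of nuclear genes, in both experiments. Both rRNA genes lie below nearly all points of the nuclear lists in the knockout and below all of them with the antibody, while the medians of the nuclear lists lie between -0.04 and 0.52.

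Markers of other cell types were low beside these values but moved with some groups. Summed normalised counts of the 6 B cell markers were 47.7 to 50.7 against 20.7 to 27.4 in the Trim28 experiment and 61.8 to 64.4 against 62.3 to 64 in the antibody experiment, reference libraries first. The 8 myeloid markers summed to 248 to 292 against 144 to 154 and to 350.2 to 369 against 100.2 to 106, most of it from Cd68, while Csf1r, Lyz2 and Itgam were below 30 on average in each group. The 4 CD4 T cell markers summed to 504 to 524 against 153 to 169.6 and to 496 to 569.5 against 557 to 586, with Cd4 itself below 10 on average in each group. For NK cells the sums of the 4 markers were 155 to 179 against 243 to 268 and 358 to 377 against 161 to 169.7, nearly all Eomes, and Ncr1 was at 0. The 9 erythroid and stromal markers summed to 329 to 530.2 against 609.6 to 654 and to 551 to 596 against 1115 to 1137. The part of other cells in the mitochondrial results was not tested.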

How the data were processed

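RNA was measured in 8 polyA libraries, 2 in each of 4 groups. Per the labels' protocols, BGI sequenced total RNA that had been isolated in TRIzol. The tools named in the submitters' processing notes are HISAT2 2.2.1, DESeq2, StringTie 2.1.4 and Trim Galore 0.4.4, with the build mm10. The read counter, its annotation and its treatment of multiply matching reads are not given in the sources used here. The values the authors deposited for each library are a signal, gene reads divided by DESeq2 size factors within each table. The deposited log2 fold changes, p-values and test scores of the authors were not used.

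Whole reads were recovered from these values, where 100% lay within 0.001 of a whole number. Each table was fitted alone with limma 3.58.1 in R 4.3.3 on log2(value + 1), for genes at 10 or more in at least 2 libraries, with Benjamini-Hochberg adjustment over all tested genes. The difference of the effects was fitted over all 8 libraries and 12428 genes. Alternatives were edgeR 4.0.16 and DESeq2 1.42.0 on recovered reads, scalings, pseudocounts, filters, a replicate block and leaving out each library. The fit was also run on simulated counts with a fixed spread, in which far fewer genes changed than were called here. That run does not measure the error of these calls. The treated antibody libraries carry no replicate number and are numbered by name only. Replicate libraries differed beyond sampling noise in every group (chi-square per degree of freedom 1.35 to 4.28). Shared windows of 100 bases and the printed sequences come from GENCODE M21 transcripts on GRCm38. The members and gene lists were chosen with earlier results of these data known. All protein, rRNA and tested tRNA genes are named, and from each list of nuclear genes of mitochondrial function and of RNAs without polyA tails the 2 genes with the smallest adjusted p in each experiment, while cell type markers are given as sums.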

Additional observations from a re-analysis of the deposited data

How the results depend on the processing

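The rRNA genes and mt-Co1 were lower and called in both experiments under every scaling, pseudocount, filter and test run, except that mt-Co1 with the antibody lost its call without either untreated library. The largest shift came from scaling to the reads of the mitochondrial genes, chosen after seeing the data. It gave 13 members higher and 5 lower in the knockout (all genes 10597 and 1369), and 4 lower with the antibody (all genes 2452 lower). On it, signs reversed in the knockout for mt-Tl1 (0.43), mt-Nd1 (0.23), mt-Nd2 (0.43), mt-Atp8 (0.26), mt-Atp6 (0.072), mt-Co3 (0.048), Malat1 (0.18), Mterf3 (0.19), Myc (0.45), Ndufa6 (0.12), Ndufv3 (0.015), Neat1 (0.42), Sdhd (0.38), Trnt1 (0.46) and Uqcrh (0.043), and with the antibody for mt-Nd1 (0.16), mt-Nd2 (0.064), mt-Nd4 (0.082) and Elac2 (0.16). This follows from its construction, since it removes the change of the total of mitochondrial reads. In the controls mt-Co1 alone made up a mean of 104558 of the 277975 normalised reads in that total. Upper-quartile scaling left 3 members higher in the knockout (all genes 4199 higher). DESeq2 called 2846 genes higher and 2660 lower in the knockout. With the antibody it called 4 members higher (all genes 3250 higher). Without a filter on low values 2 members were higher and 4 lower with the antibody, beside 3231 and 3130 of 26535 genes. The cause of these was not tested. Leaving out single libraries gave 3 to 6 members higher and 7 to 9 lower in the knockout (all genes 3212 to 4103 and 2787 to 3193), 3 to 6 and 3 to 7 with the antibody, and 4 to 6 and 4 to 7 for the difference of effects. Without the 5 widely shared genes, chosen after seeing the data, 1 member had a lower effect in the knockout. Without the rRNA genes the mean read share was 1.70% in control, 1.30% in knockout, 2.35% in untreated and 2.35% in antibody-treated cells. With tested genes as the denominator the knockout share was 1.52%. A replicate block in the Trim28 experiment gave 6 members higher and 9 lower, with 4881 and 4197 of all genes, as mt-Te gained a call (adjusted p = 0.0329) and mt-Tg lost one (0.051). The deviations of same-numbered libraries correlated at 0.0127 over 15415 genes, so the numbers do not show a pairing. In the antibody experiment no paired analysis was possible because the treated columns carry no replicate number. Depth limits the tRNA genes most, many of which had fewer than 10 reads.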
